A study of Homo sapiens with 6 samples.

Results

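MALAT1, NEAT1, KCNQ1OT1, TUG1, NORAD and OIP5-AS1 are 6 long noncoding RNAs that were followed here through 6 RNA sequencing libraries of NCI-H1975 cells. They were taken by name from a table of 60960 features, through the Ensembl identifier of each gene, and all 6 had a row. The names were selected on FPKM values of these same libraries, with the difference of MALAT1 between the groups already known, so the levels and the MALAT1 difference are given as descriptions. NCI-H1975 is an established human non-small cell lung cancer line. Libraries labelled siNC (n = 3) came from cells given a control small interfering RNA, and libraries labelled siGFPT2 (n = 3) from cells given a small interfering RNA against GFPT2, an enzyme at the entry of the hexosamine pathway. The stated purpose was to compare gene expression between these groups. The extraction text, which all 6 libraries share, also speaks of Almonertinib, EGF and a knockdown of EGFR, but no sample's treatment label carries them. Nothing in the labels says that the replicates came from separate cultures, so p-values measure the spread between these libraries, which may be technical.

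Long noncoding RNAs act as RNA, and where in the cell they sit is a large part of what they can do. MALAT1 stays in the nucleus at nuclear speckles, where splicing factors gather, and was first described in metastasizing lung cancer. NEAT1, its neighbour on chromosome 11, is the scaffold of paraspeckles, another kind of nuclear body. KCNQ1OT1 is a nuclear antisense transcript that silences an imprinted gene cluster. NORAD is mostly cytoplasmic and binds Pumilio proteins, which repress mRNAs. OIP5-AS1, known as Cyrano in fish and mice, is also mostly cytoplasmic and carries an extensively paired site for the microRNA miR-7. TUG1 is found in both compartments.

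Sequence elements for which 4 of these RNAs are known are shown here. MALAT1 and NEAT1 are cut at their 3′ ends by RNase P rather than polyadenylated there, and the new end is held in a triple helix of U-rich motifs and an A-rich tract. The libraries were made from RNA enriched on oligo(dT) beads, so how fully they capture such ends was not tested. The stretches are from GENCODE release 29 transcripts on GRCh38, 5′ to 3′ as DNA letters, with both U-rich motifs and the A-rich tract in capitals.
MALAT1, chr11:65506031-65506116, plus strand: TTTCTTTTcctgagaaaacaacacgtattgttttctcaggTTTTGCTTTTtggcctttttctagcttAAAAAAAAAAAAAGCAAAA
NEAT1, chr11:65445453-65445540, plus strand: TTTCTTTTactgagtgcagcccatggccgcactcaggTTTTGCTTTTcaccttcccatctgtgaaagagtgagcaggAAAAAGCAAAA
On the sense strand, the 3 runs of capitals of the NEAT1 line in this order, with 10 to 60 bases between neighbours, were found in 2 of 206694 GENCODE transcripts. Those were 1 transcript each of MALAT1 and NEAT1, from which the letters and spacing were set. The last run alone, the A-rich tract, was found in 903 transcripts (0.437%). The NEAT1 row of the table covers the long form of 22743 bases and the short form of 3441 bases together. The short form, which ends in a poly(A) tail, lacks the 3 motifs.

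NORAD carries repeats of the Pumilio recognition letters TGTANATA, where N is any base. Its transcript of 5339 bases holds 15 of them, or 2.81 per 1000 bases, searched on the sense strand. NEAT1 held 6, TUG1 2, OIP5-AS1 1 and MALAT1 none, and KCNQ1OT1 held 9 in 91667 bases. Among 12568 transcripts of 4000 to 7000 bases, 40.5% held at least 1, and 3, NORAD counted, held at least 15. Its 3 closest pairs, whose starts lie 9 bases apart, are shown with the elements in capitals.
NORAD, chr20:36049497-36049525, minus strand: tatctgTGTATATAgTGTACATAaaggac
NORAD, chr20:36048300-36048328, minus strand: ctatacTGTATATAtTGTATATAtaacgg
NORAD, chr20:36047664-36047692, minus strand: gtgctgTGTATATAgTGTATATAagcgga
The site in OIP5-AS1 is shown with mature miR-7 (RefSeq, GRCh38.p14), whose seed, bases 2 to 8, is in capitals. In the site, capitals mark 14 bases that pair with the 3′ part of the microRNA and 8 that face its 5′ end, on either side of 4 other bases.
OIP5-AS1, chr15:41300574-41300599, plus strand: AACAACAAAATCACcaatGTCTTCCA
hsa-miR-7-5p: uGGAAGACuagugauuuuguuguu
These letters describe the transcripts, and no binding was measured here.

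The libraries held 21899321 to 27234880 counted fragments, recovered from the steps of the FPKM values (fragments per kilobase of exon, scaled by the counted total of the library). The targeted gene, GFPT2, averaged 9.24 ± 0.925 FPKM over the siNC libraries and 8.41 ± 0.734 over the siGFPT2 libraries (SD, n = 3). The groups overlapped, and the difference of -0.13 on the log2 scale had an interval of -0.43 to 0.17 (limma, adjusted p = 0.9999). The names siNC and siGFPT2 therefore stand below for libraries so labelled. Keratins and EPCAM marked the cells as epithelial, with KRT19 at 443 to 677 FPKM and EPCAM at 136 to 199. The lung lineage factor NKX2-1 stood at 27.7 to 31.7 FPKM, and the lung protease NAPSA at 0.530 to 0.767. Of 9 markers of other cell types, MS4A1 was at 0 in all 6 libraries, PTPRC and CD3E reached at most 0.0169 FPKM, HBB lay at 0.704 to 1.45 and COL1A1 reached 8.23 FPKM. COL3A1, a fibroblast collagen, had 135 reads (0.879 FPKM) in siGFPT2 1 and 0 to 3 reads in the other libraries. PECAM1, VWF, COL1A1 and HBB were also highest in siGFPT2 1. CD68 was highest in siNC 1 (0.167 FPKM, 8 reads), PTPRC in siNC 3 and CD3E in siGFPT2 3. The 9 summed to 7.24 to 8.34 FPKM in siNC and 7.21 to 10.97 in siGFPT2.

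Replicates siNC 3 and siGFPT2 2 stood apart from the other 4 by transcript length. In these 2 libraries, protein-coding features with at least 8000 bases of exon had median deviations of -0.331 and -0.2 from their 6-library mean, on the log2 scale. Features under 1500 bases lay above it, at 0.413 and 0.265. In the other 4 libraries the long class lay at 0.067 to 0.191 and the short class at -0.235 to -0.133. The set has exon lengths of 5339 to 91667 bases in GENCODE 29. The group difference of each RNA is therefore given with and without these 2 libraries. The cause of the length pattern was not tested.

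In order of level, NORAD led the set at a mean of 34.5 FPKM over the 6 libraries, followed by TUG1 at 17.7, MALAT1 at 17.0, NEAT1 at 4.92, OIP5-AS1 at 3.64 and KCNQ1OT1 at 0.0492. Among 866 long noncoding features whose mean reached 1 FPKM, NORAD ranked 10, TUG1 24, MALAT1 26, NEAT1 130 and OIP5-AS1 186. KCNQ1OT1 fell below that minimum, so the description of the set as abundant does not cover it. Among all features, of which 12896 reached that minimum, NEAT1 ranked only 6857 and OIP5-AS1 8028. NORAD stood above TUG1 in every library, by a ratio of 1.84 to 2.08. MALAT1 and TUG1 could not be ordered, since MALAT1 over TUG1 lay between 0.651 and 1.19. NEAT1 stood above OIP5-AS1 in every library, by 1.14 to 1.66 times. These are levels per length, and for NEAT1 they divide by all 22767 bases although the short form covers only its first part.

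**Figure D1:**
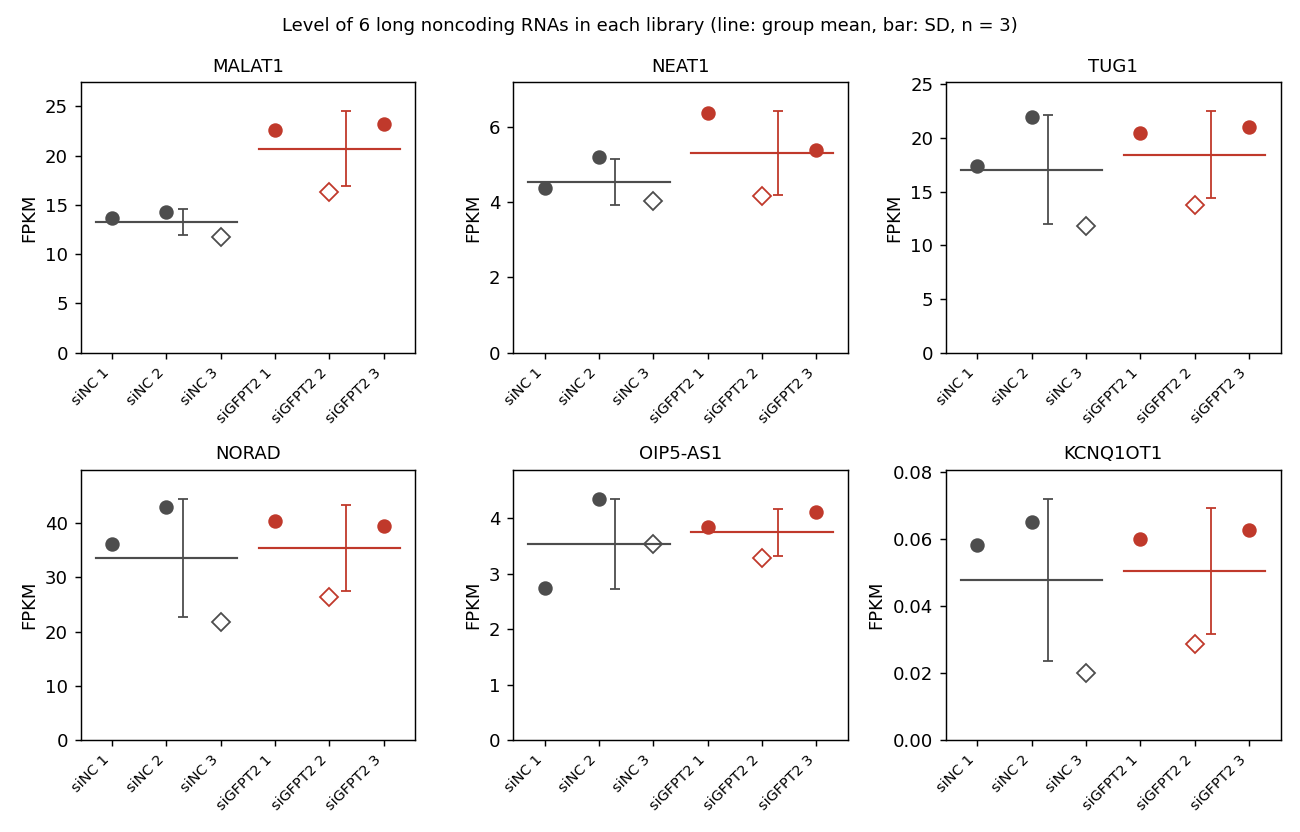
FPKM (vertical axis, from 0) of each of the 6 long noncoding RNAs in the 6 libraries (horizontal axis), with siNC in grey and siGFPT2 in red, the group mean as a line and the SD as a bar (n = 3). Open diamonds mark siNC 3 and siGFPT2 2; the MALAT1 groups do not overlap, whereas those of the other 5 do.

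MALAT1, on the plus strand of chromosome 11 (65497688 to 65506516, GENCODE 29 on GRCh38, exon length 8829 bases), was higher in every siGFPT2 library than in any siNC library. It stood at 13.6, 14.3 and 11.8 FPKM in siNC 1, 2 and 3 and at 22.6, 16.4 and 23.2 FPKM in siGFPT2 1, 2 and 3. The lowest siGFPT2 library was siGFPT2 2 and the lowest siNC library was siNC 3, the 2 that stood apart by length. The means were 13.2 ± 1.30 and 20.7 ± 3.79 FPKM (SD, n = 3), 56.5% higher in siGFPT2. In bulk RNA, more cells with the transcript and more of it per cell cannot be told apart. Between 2549 and 4553 reads per library lay behind these values, for a counting error of 1.48% to 1.98%, which covers counting only. The log2 difference was 0.63 ± 0.17 (SE), with a 95% interval of 0.235 to 1.02, and an adjusted p of 0.9999 in limma over 12896 features. No feature passed the adjusted threshold of 0.05 (0% of 12896), and limma-voom on recovered reads called 0 as well. At an unadjusted p under 0.05 limma counted 84 features (0.651%) and limma-voom 60. MALAT1 was the 1 member among them, beside 0.326% of features that were higher in siGFPT2.

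Among the 5 members tested, MALAT1 alone had groups that did not overlap, beside 3.53% of all features in either direction and 2.16% in its own. By p it ranked 6 of the 12896 features, and 85 features, MALAT1 counted, had at least as large a log2 difference upward. Within the 866 long noncoding features it had the smallest p, and 9 of them, MALAT1 counted, had at least its log2 difference, 2 of these with groups apart. MALAT1 had been singled out from this comparison, so these places describe it and support nothing further.

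Without siNC 3 and siGFPT2 2, the MALAT1 difference was 0.71 (95% interval 0.523 to 0.896, limma adjusted p = 0.2315). It was again the 1 member with an unadjusted p under 0.05, beside 3.99% of features in its direction. With 2 libraries against 2, groups lay apart for 41.9% of all features and 23.9% were higher in siGFPT2, so a lack of overlap there says little. limma-voom on recovered reads without the same libraries gave 0.71, the smallest p in the table and an adjusted p of 0.0577. With the length slope of each library as a covariate the difference was 0.63 (0.43 to 0.834, adjusted p = 0.69454). The adjusted threshold was missed in each of these fits. Without siGFPT2 1, the library with the most COL3A1, the difference was 0.56.

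NEAT1, on the same strand 52148 bases before MALAT1 (chromosome 11, 65422774 to 65445540), overlapped between groups. Its FPKM was 4.37, 5.20 and 4.03 in siNC and 6.38, 4.17 and 5.38 in siGFPT2, in replicate order. Replicate siGFPT2 1 was the highest, and siGFPT2 2 lay within the siNC range. The lowest libraries were siNC 3 and siGFPT2 2. The means were 4.53 ± 0.603 and 5.31 ± 1.11 FPKM, from 2200 to 3301 reads. The difference was 0.21 (-0.23 to 0.65, limma adjusted p = 0.9999) with all libraries and 0.29 (-0.03 to 0.615) without siNC 3 and siGFPT2 2. limma-voom without the same 2 libraries gave 0.30 (0.047 to 0.549, adjusted p = 0.67116). There NEAT1 and MALAT1 both had an unadjusted p under 0.05, beside 4.58% of features that were higher in siGFPT2. In the limma fit without siGFPT2 1, the NEAT1 difference was 0.07 (-0.409 to 0.55).

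KCNQ1OT1 (chromosome 11, 2608328 to 2699994, minus strand) was near the floor of the table. Its FPKM was 0.0582, 0.0653 and 0.0200 in siNC and 0.0600, 0.0288 and 0.0629 in siGFPT2, from 45 to 131 reads per library. Its 2 low values were those of siNC 3 and siGFPT2 2, and the other 4 libraries lay within 0.0582 to 0.0653. It did not pass the filter on low values, and in a fit without that filter its difference was 0.03 (-0.446 to 0.511, limma adjusted p = 0.99995). Without the 2 libraries it was -0.002 (-0.23 to 0.226). The pseudocount of 0.1 FPKM exceeds the level of this RNA and narrows these intervals. At a pseudocount of 0.01 the difference over all libraries was 0.12 (-1.39 to 1.635). The gene lies inside KCNQ1 on the opposite strand and shares 121 exon bases with it (0.132% of its length). Because the strand setting of the counting is not given in the sources used here, reads of the 2 genes cannot be told apart there. For the same reason, unspliced KCNQ1 reads elsewhere within KCNQ1OT1 cannot be told apart from its own.

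TUG1 (chromosome 22, 30969245 to 30979395, plus strand), the member of both compartments, stood at 17.4, 22.0 and 11.8 FPKM in siNC and at 20.5, 13.8 and 21.0 in siGFPT2. The groups overlapped, and the 2 lowest libraries were again siNC 3 and siGFPT2 2. The difference was 0.13 (-0.504 to 0.77, limma adjusted p = 0.9999), and 0.09 (-0.20 to 0.375) without those 2.

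NORAD, the Pumilio-binding RNA (chromosome 20, 36045622 to 36050960, minus strand), moved between libraries like TUG1. It stood at 36.2, 43.0 and 21.7 FPKM in siNC and at 40.4, 26.3 and 39.4 in siGFPT2, with the same 2 low libraries. Its highest library stood 1.98 times its lowest, while the ratio of NORAD to TUG1 varied by 1.13 times. The group difference was 0.10 (-0.58 to 0.79, limma adjusted p = 0.9999), and 0.02 (-0.22 to 0.256) without the 2 libraries.

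OIP5-AS1, the miR-7 site RNA (chromosome 15, 41283990 to 41309737, plus strand), had another order of libraries. Its FPKM was 2.74, 4.35 and 3.53 in siNC and 3.84, 3.29 and 4.11 in siGFPT2, from 767 to 1208 reads. The lowest library was siNC 1, and siNC 3 lay in the middle of its group. The difference was 0.10 (-0.36 to 0.556, limma adjusted p = 0.9999), and 0.20 (-0.315 to 0.71) without siNC 3 and siGFPT2 2. It shares 470 exon bases (3.71% of its length) with OIP5 on the opposite strand, which held 70 to 124 reads per library.

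**Figure D2:**
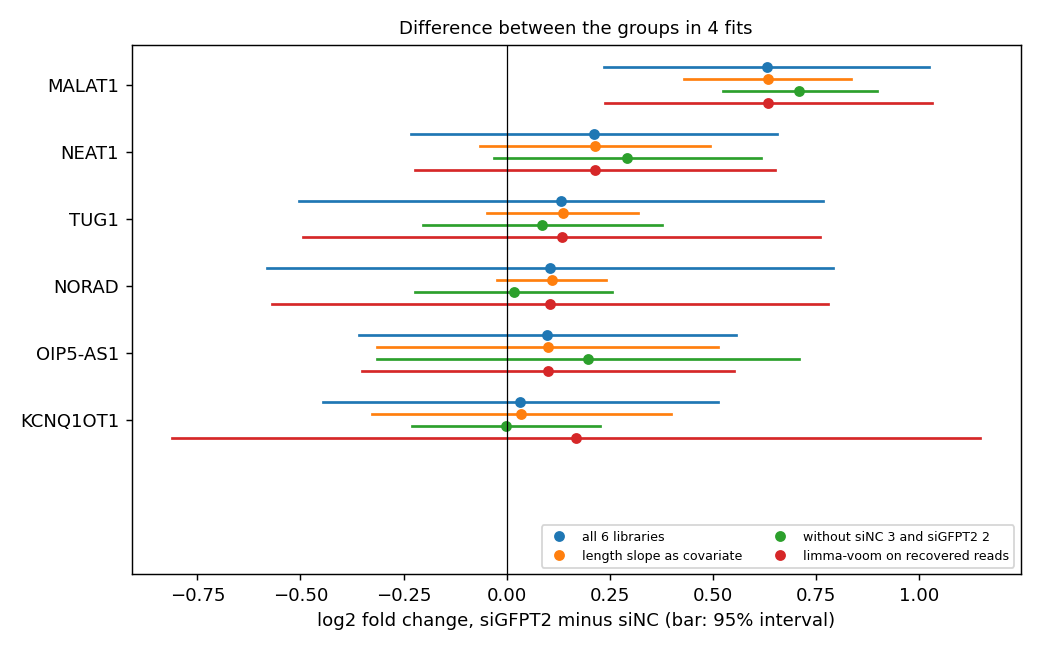
Difference in log2 level, siGFPT2 minus siNC (horizontal axis), for each long noncoding RNA (vertical axis), with points for the estimate and bars for the 95% interval in 4 fits. The fits use all 6 libraries, the length slope as covariate, 4 libraries (without siNC 3 and siGFPT2 2) and limma-voom on all 6; in these 4 the MALAT1 intervals lie above 0 and those of the other 5 RNAs include 0.

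Transcript length and library were then set side by side. Each member was compared in each library with the median deviation of protein-coding features in its own length class (at least 8000 bases of exon, or 5000 to 8000 for NORAD). MALAT1 lay below its class in siNC, by values of -0.334, -0.392 and -0.146 in replicates 1, 2 and 3. In siGFPT2 it lay above, at 0.316, 0.194 and 0.346. The groups did not overlap on this measure, beside 2.02% of all features that were higher in every siGFPT2 library, and the difference was 0.58. For the other 5 RNAs the groups overlapped, with differences of -0.021 for KCNQ1OT1 to 0.157 for NEAT1. NORAD lay further down than its class in siNC 3 (-0.47) and siGFPT2 2 (-0.269), and OIP5-AS1 lay above its class in both (0.301 and 0.072).

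**Figure D3:**
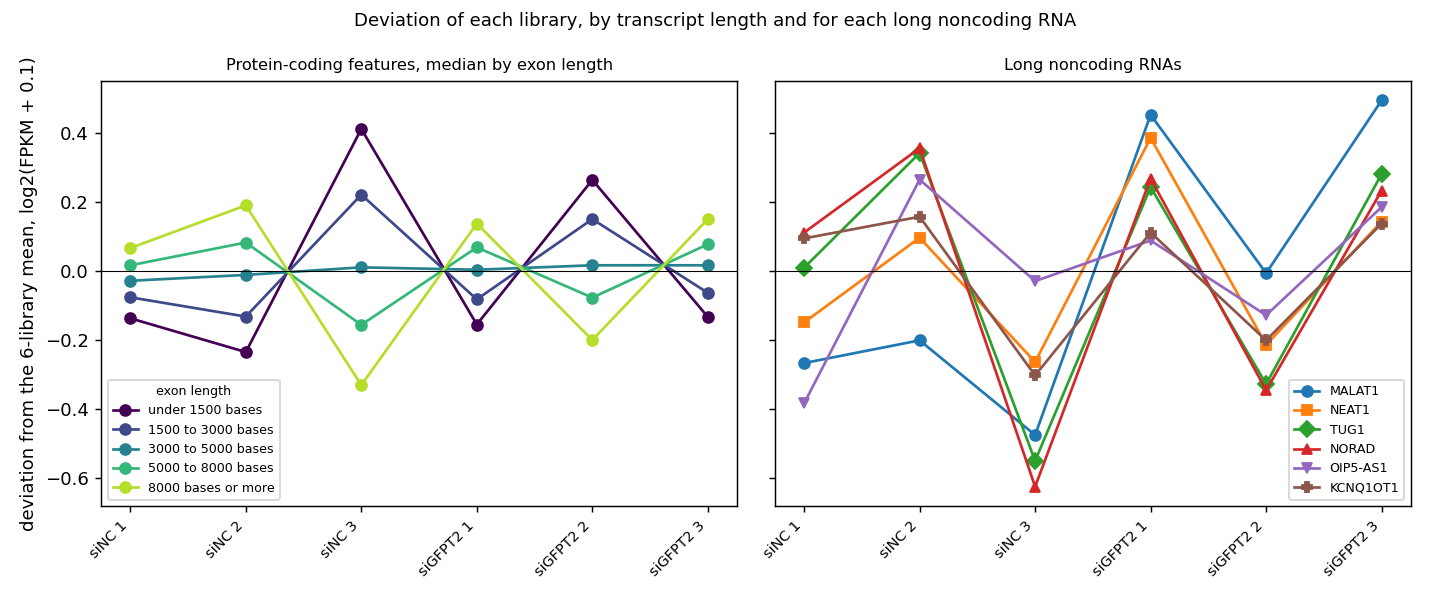
Deviation of each library (horizontal axis) from the 6-library mean of log2(FPKM + 0.1) (vertical axis), as the median of protein-coding features in 5 classes of exon length (left) and for each long noncoding RNA (right). In siNC 3 and siGFPT2 2 the longest class is lowest, and NORAD, TUG1, NEAT1 and KCNQ1OT1 are also lowest there.

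The ratio of MALAT1 to another RNA of the same library does not depend on how libraries are scaled. MALAT1 over NEAT1 was 3.12, 2.75 and 2.93 in siNC and 3.54, 3.92 and 4.32 in siGFPT2, with means of 2.93 ± 0.188 and 3.93 ± 0.393 (SD, n = 3). The groups did not overlap, and 0.0853% of features had a ratio to NEAT1 that was higher in every siGFPT2 library. MALAT1 over TUG1 was 0.784, 0.651 and 1.00 in siNC and 1.10, 1.19 and 1.11 in siGFPT2, and 0.318% of features were apart in that direction. MALAT1 over NORAD was 0.377, 0.333 and 0.544 in siNC and 0.558, 0.621 and 0.589 in siGFPT2, beside 0.287% of features. All 3 ratios were apart, although siNC 3 came close to the siGFPT2 range for TUG1 and NORAD. MALAT1 over OIP5-AS1 overlapped, since siNC 1 at 4.99 exceeded siGFPT2 2 at 4.98 (0.551% of features were apart). MALAT1 over KCNQ1OT1 overlapped as well, at 219 to 588 in siNC and 369 to 567 in siGFPT2. These ratios reuse the MALAT1 values and are not a separate measurement.

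**Figure D4:**
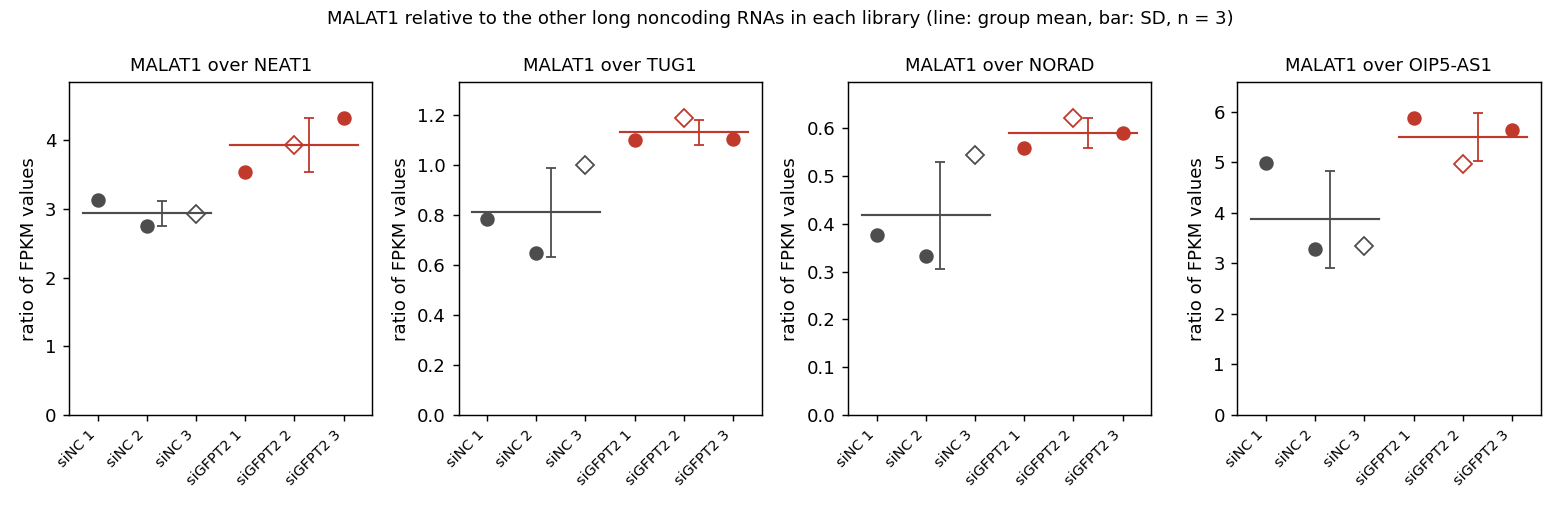
Ratio of MALAT1 to NEAT1, TUG1, NORAD and OIP5-AS1 (vertical axes, from 0) in each library (horizontal axis), with group means as lines and SDs as bars (n = 3). Open diamonds mark siNC 3 and siGFPT2 2; the groups lie apart for NEAT1, TUG1 and NORAD and overlap for OIP5-AS1.

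Nuclear and cytoplasmic RNAs were compared within each library as the mean log2(FPKM + 0.1) of MALAT1, NEAT1 and KCNQ1OT1 minus that of NORAD and OIP5-AS1. This value was -2.25, -2.57 and -2.30 in siNC and -2.14, -2.18 and -2.23 in siGFPT2. The means of -2.37 ± 0.174 and -2.18 ± 0.045 differed by 0.19. The highest siNC value and the lowest siGFPT2 value, -2.25 and -2.23, nearly met, and the groups overlapped at a pseudocount of 0.01 or 1 FPKM and with TUG1 counted in either class. Without siNC 2 the difference was 0.09. Without siNC 3 and siGFPT2 2 the difference was 0.226. With MALAT1 left out, the 3 siNC values (-3.59, -3.89 and -3.66) and the 3 siGFPT2 values (-3.63, -3.67 and -3.77) overlapped and the difference was 0.02. Without KCNQ1OT1, whose level is under the pseudocount, it was 0.319. The groups then lay apart, at -0.665 to -0.344 in siNC and -0.191 to -0.059 in siGFPT2. That setting still contains MALAT1. The labels name no separation of compartments, so the classes are those of background knowledge.

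Genes tied to these RNAs and the cell type markers given above were read together from 11 lists, of which 96 genes were tested. None was called by limma and none had an unadjusted p under 0.05, beside 0.651% of all features. Without siNC 3 and siGFPT2 2, 5 of the 96 had one, beside 5.82% of all features. They were SRSF1 (0.454), SRSF2 (0.274) and SRSF3 (0.262) among the speckle proteins, C1D (0.636) and CDKN1C (-0.284). Of all tested protein-coding features, 62.1% were above 0, which stands beside each count above 0 given for a list. Paraspeckle proteins, the partners of NEAT1, had 10 of 16 values above 0 and a median of 0.009, beside 0.033 over all features. HNRNPK stood at 111 FPKM in siNC and 122 in siGFPT2, a difference of 0.14 (-0.136 to 0.417). Proteins of nuclear speckles, where MALAT1 stays, had 9 of 12 above 0 and a median of 0.095. Without siNC 3 and siGFPT2 2 these medians were -0.024 for paraspeckle and 0.044 for speckle proteins, beside 0.029 over all features. The splicing factor SRSF1 differed by 0.28 (-0.223 to 0.784) and BCLAF1 by 0.185 (-0.298 to 0.669).

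RNase P subunits and other factors of the MALAT1 3′ end were split evenly, with 5 of 10 above 0 and a median of 0.002 (0.037 without siNC 3 and siGFPT2 2). Their RNase P subunits POP1 and RPP30 differed by 0.09 (-0.208 to 0.387) and 0.135 (-0.385 to 0.655), and METTL16, which binds the MALAT1 triple helix, by -0.008 (-0.298 to 0.282). Factors of nuclear RNA decay had 11 of 11 above 0, where 62.1% of protein-coding features were above 0. Their median was 0.147 (0.116 without siNC 3 and siGFPT2 2). The exosome helicase MTREX differed by 0.206 (-0.148 to 0.559) and the exosome cofactor C1D by 0.391 (-0.184 to 0.965). For each of the 11 the groups overlapped. Transcripts known to keep detained introns in the nucleus had 10 of 13 above 0 and a median of 0.097 (0.126 without those libraries). The helicase DDX5 stood at 46.6, 50.6 and 47.0 FPKM in siNC and at 53.3, 51.3 and 54.6 in siGFPT2, with a difference of 0.143 (-0.086 to 0.371). Its groups and those of SRSF5 did not overlap, 2 of 13 in this list beside 3.53% of all features. RBM39, a splicing factor, differed by 0.123 (-0.148 to 0.395).

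Proteins that bind NORAD or OIP5-AS1 had 5 of 5 values above 0 and a median of 0.05 (0.031 without siNC 3 and siGFPT2 2). The Pumilio protein PUM2 stood at 14.6 and 15.7 FPKM, a difference of 0.119 (-0.471 to 0.709), and RBMX differed by 0.081 (-0.141 to 0.303). Pumilio target mRNAs had 9 of 10 above 0, beside 62.1% of protein-coding features, and a median of 0.134 (0.136 without those libraries). The cohesin subunit SMC3 differed by 0.267 (-0.088 to 0.622) and the cohesin acetyltransferase ESCO2 by 0.368 (-0.153 to 0.889). PRC2, the histone methyltransferase complex reported to bind TUG1, had 3 of 3 above 0, with SUZ12 at 0.21 (-0.342 to 0.763) and EZH2 at 0.05 (-0.197 to 0.297), the median of 0.05 being 0.102 without those libraries. In the imprinted KCNQ1 domain 2 of 7 lay above 0 and the median was -0.089 (-0.112 without those libraries). Its growth restraining gene CDKN1C differed by -0.245 (-0.64 to 0.151) and PHLDA2 by -0.212 (-0.669 to 0.245).

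Protein-coding neighbours were read as the 2 nearest tested genes on each side of a member, 20 different genes in all. None was called by limma and none had an unadjusted p under 0.05 (1 did without siNC 3 and siGFPT2 2, CDKN1C), and their differences ran from -0.245 to 0.197. MALAT1 and NEAT1 share theirs. FRMD8 differed by 0.04, DPF2 by -0.041 and LTBP3, a binding protein of latent TGF-beta, by -0.14 (-0.393 to 0.112). LTBP3 was lower in every siGFPT2 library than in any siNC library, the opposite direction to MALAT1, beside 1.36% of all features. AAR2, next to NORAD, was the only other neighbour with groups apart, higher by 0.113 (-0.124 to 0.35), which makes 2 of 20 beside 3.53% of all features in either direction.

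Features with the closest profile over the 6 libraries were found by the root-mean-square difference of centred log2 values, among 6634 or 6635 features whose mean reached 5 FPKM. TUG1 had close company, with SPIN1 at 0.02 and the actin regulator WASL at 0.024. NORAD was nearest to TGOLN2, a trans-Golgi protein, at 0.021 and TMEM245 at 0.026, and NORAD and TUG1 differed from each other by 0.057. OIP5-AS1 was nearest to BROX (0.048) and STX12 (0.051), and NEAT1 to TAF9B (0.052) and FAM3C2P (0.068). MALAT1 was farther from its nearest features, both pseudogenes, LSM12P1 at 0.119 and EIF4HP1 at 0.183. A pseudogene can share reads with its parent gene, so its value is uncertain. LSM12P1 stood at 14.2 to 14.3 FPKM in siNC and at 20.9 to 27.1 in siGFPT2. For KCNQ1OT1 the pseudocount exceeds its level and flattens its profile, so AP2B1 (0.013) and CYTH3 (0.016), its nearest, carry no weight.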

How the data were processed

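Gene expression was read from 1 deposited table of FPKM values per gene and library, made by the authors. The submitters' processing notes name the tools HISAT2, featureCounts and DESeq2, with no versions. Build and annotation: not given in the sources used here. The siNC columns were matched to samples by description, and the siGFPT2 columns by the replicate number after GF in the sample titles. The siGFPT2 descriptions were read as carrying a gene number after GF, so they do not match the column names directly. Positions, lengths and transcript sequences are those of GENCODE 29 on GRCh38. All 36981 features above 0 came out as whole reads within 0.0001 reads, with lengths from GENCODE 29 for 19937 of them and the smallest length that gave whole reads for 17044, so the share of 100.0% is partly built in.

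limma 3.58.1 in R 4.3.3 (lmFit, eBayes with trend, two-sided) was run on log2(FPKM + 0.1), which understates changes of low genes, over the 12896 features whose mean reached 1 FPKM, with group as the only term and Benjamini-Hochberg adjustment over all of them at a threshold of 0.05. KCNQ1OT1 did not pass this filter, and its value is from the same fit without it. The script was tested on simulated data. Alternatives were 2 other pseudocounts, other filters, median centring, quantile normalization, a replicate block, each library left out, both siNC 3 and siGFPT2 2 left out, limma-voom on recovered reads, and a length slope covariate.

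The members, gene lists and tests were chosen with earlier results of these data known. Named genes are the 6 RNAs, the 2 nearest tested protein-coding genes on each side, the 2 list members with the smallest p, and the 2 features with the closest profile; some that this rule selects are not reported here. METTL16, EPCAM, MS4A1, PTPRC, CD3E, CD68, COL3A1, PECAM1, VWF, NAPSA, SRSF2, SRSF3 and SRSF5 were named after their values were seen. The comparison of each RNA with its length class and the ratios to MALAT1 were also chosen with values known.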

Additional observations from a re-analysis of the deposited data

How the results depend on the processing

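None of the 17 alternative fits called a feature, and the number with an unadjusted limma p under 0.05 ran from 16 (minimum mean of 5 FPKM) to 865 (limma-voom without siNC 3 and siGFPT2 2), beside 84. That count was 754 with no filter, 704 with the length covariate, 751 without siNC 3 and siGFPT2 2, 520 without siNC 3, and 161 without siNC 2. MALAT1 kept its direction in 17 of 17, at 0.539 to 0.79 on the log2 scale, and NEAT1 in 16 of 16, at 0.07 to 0.371.

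Direction was lost for 4 RNAs whose differences were small. With 1 library left out at a time, TUG1 ran from -0.111 to 0.336, NORAD from -0.182 to 0.309, OIP5-AS1 from -0.069 to 0.256 and KCNQ1OT1 from -0.111 to 0.141. TUG1 turned without siNC 3 (-0.111). NORAD turned without siNC 3 (-0.182) and without siGFPT2 1 (-0.004), and OIP5-AS1 without siNC 1 (-0.069). KCNQ1OT1 turned without siNC 3 (-0.111), siGFPT2 1 (-0.015) or siGFPT2 3 (-0.028), with median centring (-0.02) or quantile normalization (-0.02), and without both siNC 3 and siGFPT2 2 (-0.002, or -0.004 with limma-voom). The cause was not tested. Median centring moved the median of all features from 0.033 to -0.02.

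The nuclear minus cytoplasmic difference of 0.19 was 0.319 without KCNQ1OT1 and 0.02 without MALAT1, the latter chosen after seeing the data, and 0.09 to 0.252 with 1 library left out. Same-numbered libraries correlated at 0.473, -0.719 and -0.57 in their deviations from the group means. The highest correlation, 0.792, was that of siNC 3 with siGFPT2 2, the libraries that stood apart by length. These values therefore cannot tell whether replicate numbers pair the libraries. The fit with a replicate block called 0 features, with 63 at an unadjusted limma p under 0.05, and gave MALAT1 a difference of 0.63. KCNQ1OT1 rested on as few as 45 reads and lay under the pseudocount, and its difference was 0.12 at a pseudocount of 0.01 and 0.004 at 1.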
